A study of Mus musculus with 6 samples.

Results

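Secreted Wnt antagonists are proteins that leave the cell and hold back Wnt signalling outside it. A fixed list of 9 of their genes was followed here: Notum, Sfrp1, Sfrp2, Sfrp4, Sfrp5, Dkk1, Dkk2, Dkk3 and Wif1. Of these, 8 were found by symbol in both deposited tables, each on a single RefSeq row, among 16819 symbols in the first table, and Sfrp4 was not analysed here. The cells were intestinal stem cells of C57BL/6 mice, taken from crypts of the small intestine by sorting for GFP made from Lgr5, the stem cell gene that encodes an R-spondin receptor. All animals carried Lgr5Gfp-CreERT2, a tamoxifen-activated Cre recombinase driven from Lgr5, and were taken 6 days after 3 tamoxifen injections. The WT group (2 libraries) carried nothing else, and the RingKO group (2 libraries) was Ring1a-/- in every cell and had floxed Ring1b alleles (Ring1bf/f). The genes Ring1a (symbol Ring1) and Ring1b (symbol Rnf2) code for the ubiquitin ligases of Polycomb repressive complex 1 (PRC1), an enzyme that modifies histone H2A at silent genes. The Bcat group (1 library) carried a Ctnnb1-ex3 allele, the usual name for a beta-catenin gene that makes a stabilised protein once Cre has removed exon 3, and Bcat_RingKO (1 library) carried that allele with both Ring changes. The age of the mice is not given in the labels, and nothing in them says that the 2 libraries of a group came from separate animals, so the p-values cover only library-to-library spread, which may be technical.

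Wnt ligands bind Frizzled receptors and the co-receptors Lrp5 and Lrp6, and the signal stabilises beta-catenin, which with TCF factors drives the genes that keep crypt stem cells dividing. Secreted antagonists act at different points of this chain. Notum removes the lipid from the Wnt ligand, Sfrp proteins and Wif1 bind the ligand, and Dkk1 and Dkk2 block the co-receptors. Several of these genes are also made by the stroma around the crypt.

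As recovered from the deposited values, depth ran from 922153 reads in the Bcat library to 6753789 in a WT library. The letters A and B that name the libraries of WT and of RingKO cannot be tied to the numbers in the labels. Ring1 went from 484 and 363 reads (WT) to 9 and 11 (RingKO). In the Bcat pair its normalized reads were lower with Ring loss by a smaller factor, at 53.7 and 19.2, a ratio of 0.358. In RPM (reads scaled to a library of 1000000), Ring1 stood at 71.7 and 57.7 in WT and 3.09 and 4.15 in RingKO. It stood at 26.0 in Bcat and 9.62 in Bcat_RingKO. The Bcat_RingKO level was thus above both RingKO levels, though its interval (6.96 to 13.0) overlaps that of RingKO library B (2.07 to 7.42). The cause was not tested. Rnf2 had 141 and 173 normalized reads in WT against 202 and 148 in RingKO, which checks nothing, because reads over the whole transcript do not show a removed exon. Ctnnb1 had 88.8 and 83.9 RPM in WT and 73.5 and 72.4 in RingKO. The Bcat library had 15.2 and the Bcat_RingKO library 17.0, so it was lower in both libraries with the Ctnnb1-ex3 allele, and these reads do not show exon 3. The sum of 15 Wnt target genes of the crypt was 2556 and 2601 RPM in WT and 2724 and 2420 in RingKO. It was 1829 in the Bcat library and 3442 in the Bcat_RingKO library. The sorted cells were epithelial: 5 epithelial markers summed to 2920 to 10551 RPM in every library, against 4.29 to 8.93 for the mesenchymal markers in all libraries other than Bcat, where they reached 47.7. Below, "rose" and "fell" are used where the authors' deposited table has an adjusted p under 0.05, over all 18376 entries. Values with ± are log2 fold changes and their SE, estimated by edgeR (n = 2 libraries per genotype). Intervals on single libraries cover counting error only.

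Notum, which encodes the secreted enzyme that strips the lipid from Wnt ligands, rose in RingKO. It had 6 and 9 reads in the WT libraries and 119 and 98 reads in the RingKO libraries. After division by the size factor of each library (normalized reads) that is 3.83 and 6.34 in WT against 169 and 141 in RingKO. Both RingKO libraries were above both WT libraries, and the 2 libraries of each genotype were close to each other relative to that gap. The log2 fold change was 5.09 ± 0.29, and the authors' deposited table gives means of 5.76 and 156 with an adjusted p of 6.48e-24. Summed over the libraries of a genotype, the ratio of normalized reads was 30.8 (95% exact binomial interval of the counts 18.3 to 56.0). In bulk RNA of sorted cells, more cells with the transcript and more transcript per cell cannot be told apart, for this and every value below.

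Of the secreted Frizzled-related proteins, which bind Wnt ligands through a Frizzled-like domain, Sfrp2 and Sfrp5 moved in opposite directions. Sfrp2 rose from 4 and 8 reads in WT to 129 and 53 reads in RingKO. Normalized, WT had 2.56 and 5.64 against 183 and 76.1 with Ring loss, so the RingKO libraries differed from each other more than they did for Notum, yet both stood above both WT libraries. The log2 fold change was 5.14 ± 0.53, with an adjusted p of 0.0247 in the authors' deposited table. The edgeR estimate was 4.42 when RingKO library A was left out and 5.74 when WT library B was. Sfrp5, the antagonist with the most reads in WT cells, fell. The WT libraries had 1766 and 1431 reads and the RingKO libraries 366 and 187, or 1129 and 1008 normalized reads against 520 and 269. Both RingKO libraries were below both WT libraries, with library B at the lower end. The log2 fold change was -1.27 ± 0.25, and the authors' deposited table puts the adjusted p at 9.34e-05. With 1 library left out, the edgeR estimate ranged from -1.77 (without RingKO library A) to -0.89 (without RingKO library B). When WT library A was left out, edgeR gave -1.18 with a Benjamini-Hochberg adjusted p of 0.068. Sfrp1 had few reads, 2 and 4 reads in the WT libraries and 3 and 5 in the RingKO libraries. Its summed ratio was 2.84 with a counting interval of 0.865 to 9.93, which holds 1.

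Markers of other cell types and of the crypt's own cells were read in the same libraries. The 7 mesenchymal markers in the first table summed to 7.70 and 4.29 RPM in WT and 8.93 and 6.04 in RingKO, and Pdgfra had at most 1 read in any library. The sums of both genotypes overlapped. The 4 endothelial markers summed to 0.740 and 0.794 RPM in WT and 1.03 and 2.26 in RingKO. Of the genes in the mesenchymal, smooth muscle, endothelial, immune and nerve lists 0 passed the authors' test and 0 had an unadjusted p under 0.05. Likewise 0 were called by edgeR or by DESeq2. Only Col1a1, Col3a1 and Ret of them passed edgeR's filter on low counts. With so few reads, these counts of 0 cannot show that the share of such cells was equal. The 5 Lgr5 stem cell markers summed to 6937 and 8010 RPM in WT and 5748 and 2764 in RingKO, a sum carried by Olfm4, at 4456 and 5302 RPM against 3271 and 1182. Of the 5, only Ascl2 fell, while 3 were lower with an unadjusted p under 0.05 in the authors' test. Their median log2 ratio was -0.69. In RingKO library A both Lgr5 (158 RPM against 139 and 146) and Smoc2 (842 against 604 and 608) were above WT. In RingKO library B both were below WT, at 83.7 and 534. Slc12a2 was below WT in both RingKO libraries (1407 and 899 against 1582 and 1826). The 4 Paneth cell markers summed to 3118 and 2085 RPM in WT and 6880 and 9871 in RingKO. All 4 rose, against 3.14% of all entries, and both edgeR and DESeq2 also called all 4 higher. The part of mesenchymal, endothelial, stem and Paneth cell numbers in the Sfrp5, Sfrp2 and Notum values was not tested.

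The sequence just upstream of the start site is shown for Sfrp2 and Sfrp5, the called genes for which a RefSeq window was matched, because PRC1 in mammals is known to gather at promoters rich in CpG. Each is the 250 bases before the start on the gene's own strand in build GRCm38.p6, with every CpG in capitals. The deposited files use mm9, so these coordinates are not those of the files. Sfrp2 lies on the forward strand at chr3:83766071-83766320, and Sfrp5 on the reverse strand at chr19:42202253-42202502.
Sfrp2: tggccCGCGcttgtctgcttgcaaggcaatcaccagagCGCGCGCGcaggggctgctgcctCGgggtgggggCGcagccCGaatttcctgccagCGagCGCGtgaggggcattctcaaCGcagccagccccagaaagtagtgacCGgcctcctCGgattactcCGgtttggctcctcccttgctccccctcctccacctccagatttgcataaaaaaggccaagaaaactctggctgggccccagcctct
Sfrp5: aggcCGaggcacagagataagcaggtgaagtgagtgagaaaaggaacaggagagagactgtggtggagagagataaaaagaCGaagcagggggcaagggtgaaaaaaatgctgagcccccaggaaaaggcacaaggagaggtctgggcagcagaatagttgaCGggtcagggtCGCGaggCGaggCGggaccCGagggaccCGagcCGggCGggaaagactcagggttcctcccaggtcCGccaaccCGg
The Sfrp2 window held 16 CpG and the Sfrp5 window 13, against a median of 6 over 32851 such windows. Both passed a common density criterion (observed over expected CpG of at least 0.6 with at least 50% G and C), at 0.640 and 0.657, which 31.0% of all windows passed. Of the other members with a window, Wif1 passed with 21 CpG, and Dkk1 with 6 and Dkk2 with 7 did not. The gene that rose and the gene that fell thus both had CpG-dense windows. The letters ATCAAAG, a core of the TCF binding site, were looked for on both strands. They were in 0 of these 5 windows and in 3.21% of all windows. Notum, Sfrp1 and Dkk3 had no match in the table.

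The Dickkopf genes and Wif1 had few reads in WT and RingKO and did not pass. Notum and Sfrp2 were called from WT reads about as few, so the depth limits the view of a fall or of a smaller rise. Dkk1, a co-receptor blocker, counted 7 and 3 reads in the WT libraries, then 1 and 3 with Ring loss. Dkk2, its relative with a similar role, counted 5 and 1 against 0 and 7. Reads of both genes overlapped between the genotypes once scaled. Dkk3, a divergent family member, had 3 reads in each WT library and 2 and 7 in RingKO. Its summed ratio was 3.20 (counting interval 1.02 to 10.9), but its adjusted p in the authors' deposited table was 0.90. Wif1, which binds Wnt ligands, had 1 and 2 reads against 2 and 0. In the authors' deposited table these genes have log2 ratios of 0.11 (Dkk1), 1.30 (Dkk2), 1.55 (Dkk3) and 0.75 (Wif1), and Sfrp1 has 1.39. The authors added 1 read to every count, so an entry without reads in either genotype would already stand at a log2 ratio of 1.09, and the added read draws the ratios of genes with few reads toward that value, up or down.

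In all, 2 of the 8 antagonists rose and 1 fell in RingKO, and 5 did not pass. Over all 18376 entries 3.14% rose and 1.76% fell, or 577 and 323 entries. Of the 8, 4 had both RingKO libraries above both WT libraries (Notum, Sfrp2, Sfrp1 and Dkk3) and 1 had both below (Sfrp5), against 18.0% and 33.6% of all entries. Only Notum, Sfrp2 and Sfrp5 passed edgeR's filter on low counts, and Notum and Sfrp2 passed it through their RingKO reads. The median log2 ratio of the 8 in the authors' deposited table was 1.35, against 0.02 over all entries. The median was 0.53 over the 7419 entries with a mean under 10 and -0.18 over the 10957 with a mean of at least 10.

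**Figure D1:**
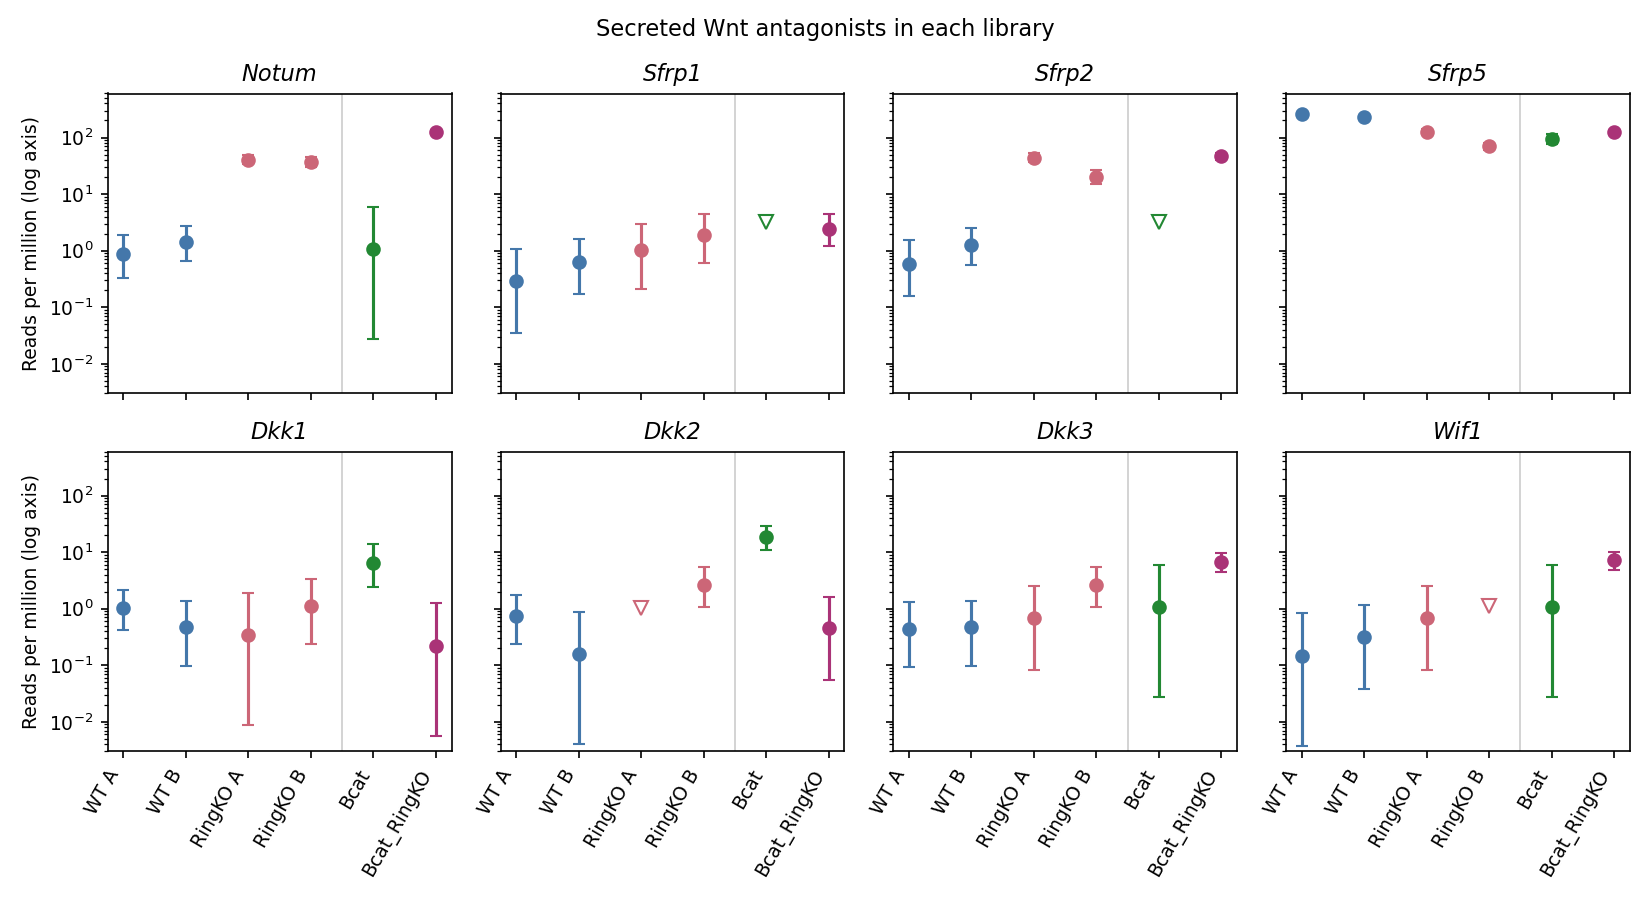
RPM (log axis) of the 8 antagonists in each of the 6 libraries. Points are single libraries, bars are 95% exact Poisson intervals of the counts, and open triangles mark libraries without reads, at the level that 3 reads would give. Notum and Sfrp2 are high in RingKO and Bcat_RingKO, Sfrp5 is highest in WT, and Dkk1 and Dkk2 are highest in Bcat.

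The Bcat pair showed the same genes in cells that carry the Ctnnb1-ex3 allele. With 1 library per group there is no replicate check, and a gene is called here when its ratio is at least 2-fold and the 95% exact binomial interval of its counts leaves out 1. Notum had 1 read in Bcat and 562 in Bcat_RingKO. In normalized reads that is 2.24 against 251, a ratio of 112 with a wide interval of 20.1 to 4447, because it rests on the 1 read in Bcat. Sfrp2 had 0 reads in Bcat and 209 in Bcat_RingKO, which is at least 13.9-fold higher when 3 reads are taken as the Bcat floor. The counting interval of that ratio begins lower, at 11.2, or at 9.67 with scaling by trimmed means (TMM). Wif1 had 1 and 32 reads (ratio 6.40, 1.07 to 261) and Dkk3 had 1 and 30 (6.00, 0.997 to 245). With TMM the interval of Wif1 began at 0.921, and scaled by total reads that of Dkk3 began at 1.03, so both lie at the limit of this depth. Sfrp1 had 0 and 11 reads, and no fold is given because the Bcat floor lies above the Bcat_RingKO level.

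Dkk2 and Dkk1 went the other way. Dkk2 had 17 reads in Bcat, the shallowest library, and 2 in Bcat_RingKO, a ratio of 0.0235 (0.00264 to 0.0991). Dkk1 had 6 and 1 reads, a ratio of 0.0333 (0.000725 to 0.275). Both genes were thus higher in Bcat than in Bcat_RingKO, from few reads. Markers of the stroma were also higher in Bcat. Of the 5 mesenchymal markers in this table, 3 were called lower in Bcat_RingKO and 0 higher. The 5 summed to 47.7 RPM in Bcat and 6.04 in Bcat_RingKO. Col1a2, a fibrillar collagen gene, had 25 reads in Bcat and 0 in Bcat_RingKO, while Pdgfra had 0 and 1. The 3 smooth muscle markers summed to 8.68 and 0.447 RPM. Their part in the Dkk2 and Dkk1 values was not tested.

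Sfrp5 had 88 reads in Bcat and 551 in Bcat_RingKO, or 197 and 246 normalized reads. The ratio was 1.25 with an interval of 0.998 to 1.59, so a lower level with Ring loss, as in RingKO, was not seen in this pair. The interval of Sfrp5 began at 1.03 when scaled by total reads and at 0.860 with TMM. Of the 8 antagonists, 3 were called higher (Notum, Sfrp2, Wif1) and 2 lower (Dkk1, Dkk2). Over all 17076 entries 17.0% were called higher and 5.53% lower, that is 2898 and 945 entries, or 2259 and 1397 (13.2% and 8.18%) with TMM scaling, which lowers every log2 ratio of the pair by 0.22. TMM leaves 2 antagonists higher and 2 lower.

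**Figure D2:**
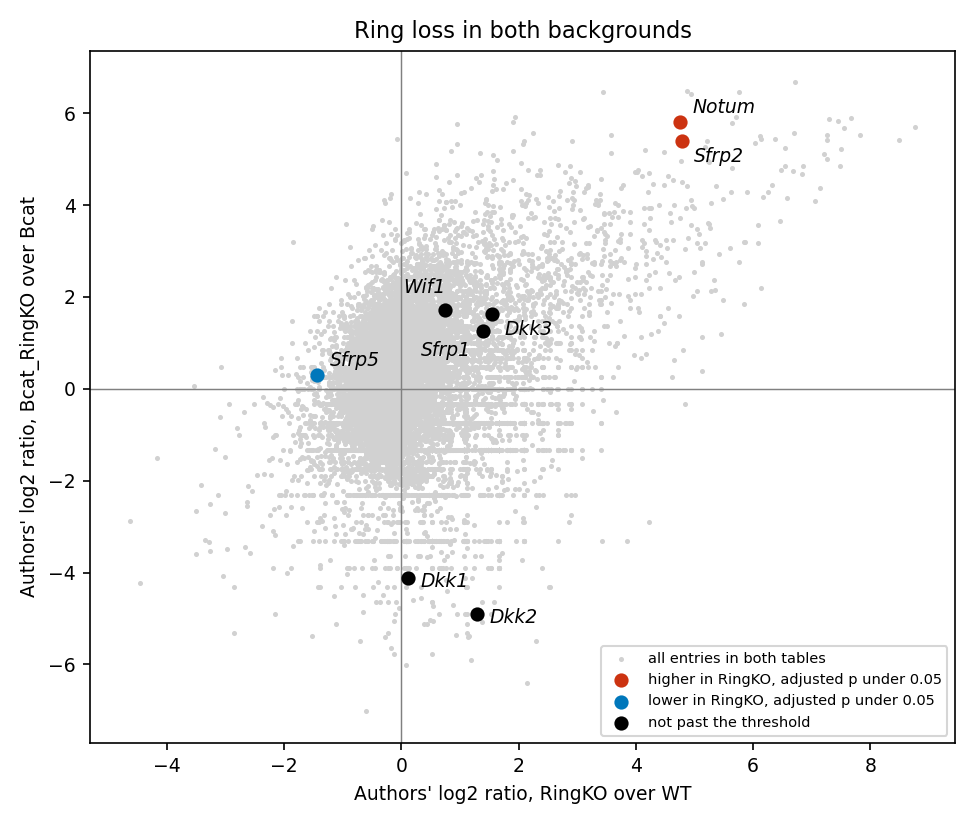
The authors' log2 ratio of Bcat_RingKO over Bcat (vertical) against that of RingKO over WT (horizontal) for the 8 antagonists (large points, coloured by the call in RingKO) and all entries of both tables (grey). Notum (4.76 and 5.82) and Sfrp2 (4.78 and 5.39) lie far up in both directions, Sfrp5 at -1.43 and 0.31, and Dkk1 and Dkk2 lie far down, at -4.13 and -4.91 in the Bcat pair.

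Set side by side over the 4 groups, the antagonists changed in their make-up. The authors scaled the tables separately, so the recovered reads were put on 1 scale, RPM, as a description with no test. Notum stood at 0.888 and 1.43 RPM in WT and at 40.9 and 37.0 in RingKO. With the Ctnnb1-ex3 allele it stood at 1.08 (Bcat) and 126 (Bcat_RingKO). WT and Bcat cannot be separated for Notum, since the Bcat interval of 0.0275 to 6.04 holds both WT values, and the Bcat_RingKO level was above both RingKO libraries. Sfrp2 stood at 0.592 and 1.27 in WT, 44.3 and 19.99 in RingKO, and 46.7 in Bcat_RingKO, and it had 0 reads in Bcat, where 3 reads would be 3.25 RPM. Bcat_RingKO and the upper RingKO library do not differ for Sfrp2 beyond their counting intervals.

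Sfrp5 stood at 261 and 227 RPM in WT and at 126 and 70.5 in RingKO. The Bcat library had 95.4 and the Bcat_RingKO library 123. WT was the highest group, and both Bcat libraries lay within the range of the RingKO libraries. Dkk2 stood at 18.4 RPM in Bcat (10.7 to 29.5) and at 0 to 2.64 in the other 5 libraries. Dkk1 stood at 6.51 in Bcat (2.39 to 14.2) and at 0.224 to 1.13 elsewhere. Dkk3 (6.71, 4.53 to 9.58) and Wif1 (7.16, 4.90 to 10.1) were highest in Bcat_RingKO, but the Bcat intervals of both reach 6.04. Sfrp1 ranged from 0 in Bcat to 2.46 in Bcat_RingKO. With TMM scaling over the 6 libraries, 6 of the 8 genes kept their highest library. The exceptions were Sfrp1 and Sfrp2, then highest in a RingKO library.

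Divided by transcript length in kilobases (RPKM), which allows genes to be compared, Sfrp5 led in all 6 libraries. In WT it stood at 138 and 120 RPKM, and every other antagonist was at or below 0.711. In RingKO, Sfrp5 stood at 66.2 and 37.1, Sfrp2 at 22.1 and 9.98, and Notum at 20.3 and 18.4, so Notum and Sfrp2 changed places between the libraries. In Bcat_RingKO, Notum at 62.5 was next to Sfrp5 at 64.9, ahead of Sfrp2 at 23.3. Of all reads on the 8 genes, Sfrp5 took 98.4% and 97.9% in WT and 58.8% and 51.9% in RingKO. Its share was 77.2% in the Bcat library and 39.4% in the Bcat_RingKO library. The share of Notum was 0.334% and 0.616% in WT and 19.1% and 27.2% in RingKO. It was 0.877% with the Ctnnb1-ex3 allele alone and 40.2% with Ring loss added. Together the 8 genes had 266 and 232 RPM in WT and 214 and 136 in RingKO. The Bcat library had 124 and the Bcat_RingKO library 313.

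**Figure D3:**
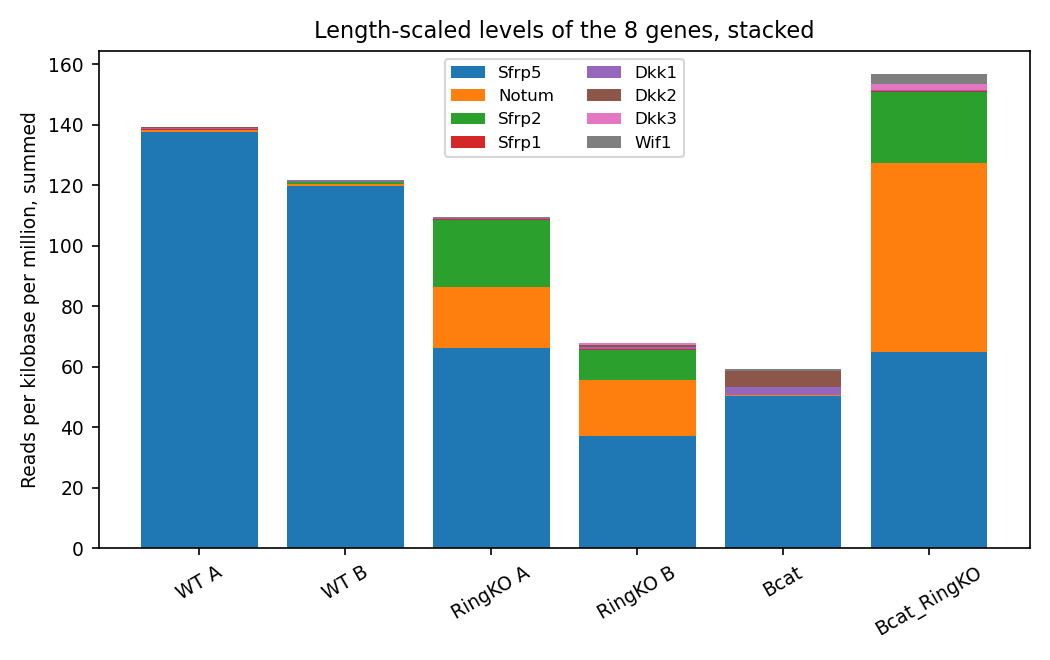
Length-scaled levels (RPKM) of the 8 antagonists, stacked for each library from 0. Sfrp5 makes up nearly the whole bar in WT, while Notum and Sfrp2 add a visible part in RingKO and Bcat_RingKO.

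The entries closest to each called gene were found by Euclidean distance over log2(RPM + 1) in the 6 libraries after subtracting the mean of each entry. There were 16386 other entries, with a median distance of 5.88 to Notum, 5.61 to Sfrp2 and 2.002 to Sfrp5. The Notum profile was nearest to Irx2 (0.77), Hoxd13 (0.78) and Zic2 (0.82). Irx2 and Hoxd13 are homeobox genes and Zic2 a zinc finger gene, all known as developmental regulators, and none had more than 1 read over the WT libraries. The Sfrp2 profile was nearest to the homeobox gene Msx1 (0.60), the phospholipase gene Plcd3 (0.81) and the zinc transporter gene Slc30a3 (0.94). Msx1 went from 6 and 5 reads in WT to 150 and 70 in RingKO, and from 0 in the Bcat library to 190 with Ring loss added, and like Sfrp2 it was higher in RingKO library A than in B. The Sfrp5 profile was nearest to Tjp3 (0.34), Mnx1 (0.49) and Pnpla6 (0.51), on rows with far fewer reads than Sfrp5. Of these, the homeobox gene Mnx1 fell, from 193 and 167 reads to 34 and 26, while the row of the junction gene Tjp3 (41 and 33 reads against 9 and 4) and that of Pnpla6 did not pass.

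**Figure D4:**
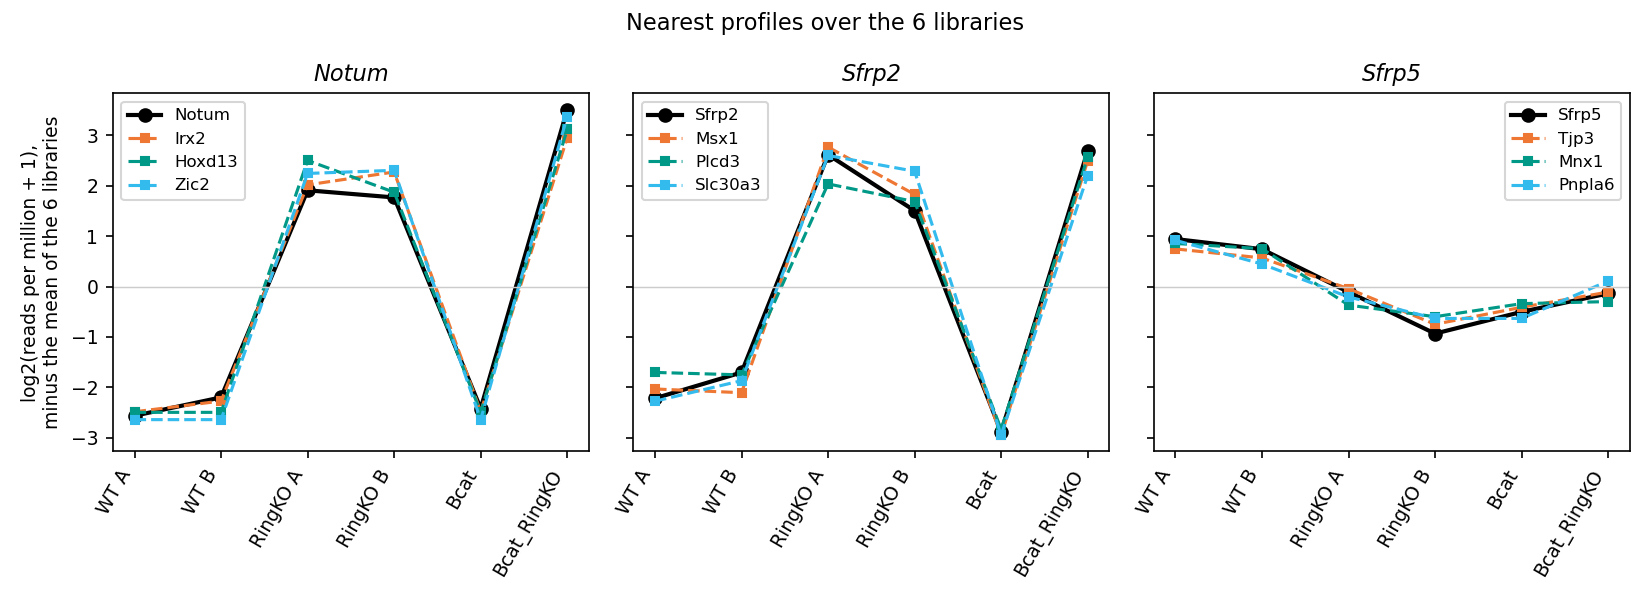
Profiles of Notum, Sfrp2 and Sfrp5 (black) with the 3 nearest entries each (coloured) over the 6 libraries, as log2(RPM + 1) minus the mean of the 6 libraries. The Notum and Sfrp2 groups are low in WT and Bcat and high in RingKO and Bcat_RingKO, and the Sfrp5 group is highest in WT.

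The rest of the Wnt pathway was read from 5 lists with 73 distinct genes in the first table, of which 3 rose and 2 fell, against 3.14% and 1.76% of all entries. Among 11 other secreted or membrane inhibitors, 1 rose and 0 fell. The 1 was Kremen2, a receptor that binds Dkk proteins together with Lrp6, at 2.12 ± 0.28 from 47 and 35 reads in WT against 61 and 86 in the shallower RingKO libraries. In RPM, both RingKO libraries were above both WT libraries, at 21.0 and 32.4 RPM against 6.96 and 5.56. Of 16 Wnt ligand and secretion genes 0 passed the authors' test and 3 had an unadjusted p under 0.05. Both edgeR and DESeq2 called 2 of them higher. Of 20 receptor and R-spondin genes 2 rose and 0 fell. Both encode Frizzled receptors: Fzd9 (2.26 ± 0.25) and Fzd3, which went from 9 and 11 reads in WT to 52 and 31 in RingKO (3.29 ± 0.39).

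Among genes inside the cell, 0 of 15 cytoplasmic and nuclear components passed the authors' test and 0 had an unadjusted p under 0.05. Both edgeR and DESeq2 called 0 of them. Of 15 direct Wnt targets in the crypt 2 fell and 0 rose, while 2 were called higher by edgeR and 2 by DESeq2. Ascl2, a transcription factor of Lgr5 stem cells, went from 155 and 127 RPM in WT to 70.8 and 65.6 in RingKO (-1.01 ± 0.16). Sp5, a zinc finger factor induced by Wnt signals, went from 80.8 and 81.8 to 56.0 and 45.3 (-0.64 ± 0.16). With 1 WT library left out, edgeR's adjusted p (Benjamini-Hochberg) was 0.073 for Ascl2 (A left out) and 0.22 or 0.28 for Sp5 (A or B left out). Of the 49 pathway genes that passed its filter, edgeR called 12 higher and 2 lower with all libraries, and DESeq2 called 8 higher and 1 lower. Of all entries they tested, edgeR called 9.91% higher and 2.95% lower, and DESeq2 6.88% and 1.89%. Both higher and lower calls were fewer without a WT library and more without a RingKO library. The share called over all entries was not counted in those fits, so this shift cannot be tied to the pathway genes.

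The list medians in the authors' deposited table were 0.64 for the other inhibitors, 1.67 for the ligands, 0.43 for the receptors, -0.21 for the cytoplasmic and nuclear components and 0.04 for the targets. Most ligand genes had under 10 reads in each WT and RingKO library and are drawn toward 1.09 by the added read. In the Bcat pair, 5 of 11 other inhibitors, 3 of 17 ligand genes, 11 of 18 receptor genes, 6 of 15 intracellular genes and 9 of 15 targets were called higher, and 0 of any of these lists lower, against 17.0% and 5.53% of all entries. The lists overlap: Znrf3, Rnf43, Lgr5 and Tcf7 stand in the target list and in another list, so their higher calls are counted in both. With TMM scaling the higher counts were 5, 3, 8, 4 and 6 in the same order, and 1 of the other inhibitors was lower. Kremen2 had 3 and 136 reads (ratio 9.07, 3.04 to 44.5), Fzd3 had 7 and 177 (5.06, 2.40 to 12.8) and Fzd9 had 6 and 142 (4.73, 2.12 to 13.1). Crypt cell markers also differed within that pair. Of 5 epithelial markers 3 were called lower in Bcat_RingKO (sums of 5383 and 2920 RPM), and all 4 Paneth cell markers were (4308 and 1225). Of the 5 stem cell markers, Lgr5 was called higher (158 and 337 RPM, ratio 2.06) and Olfm4 lower (2270 and 567), with a median authors' log2 ratio of -0.03. Their part in the list counts was not tested.

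**Figure D5:**
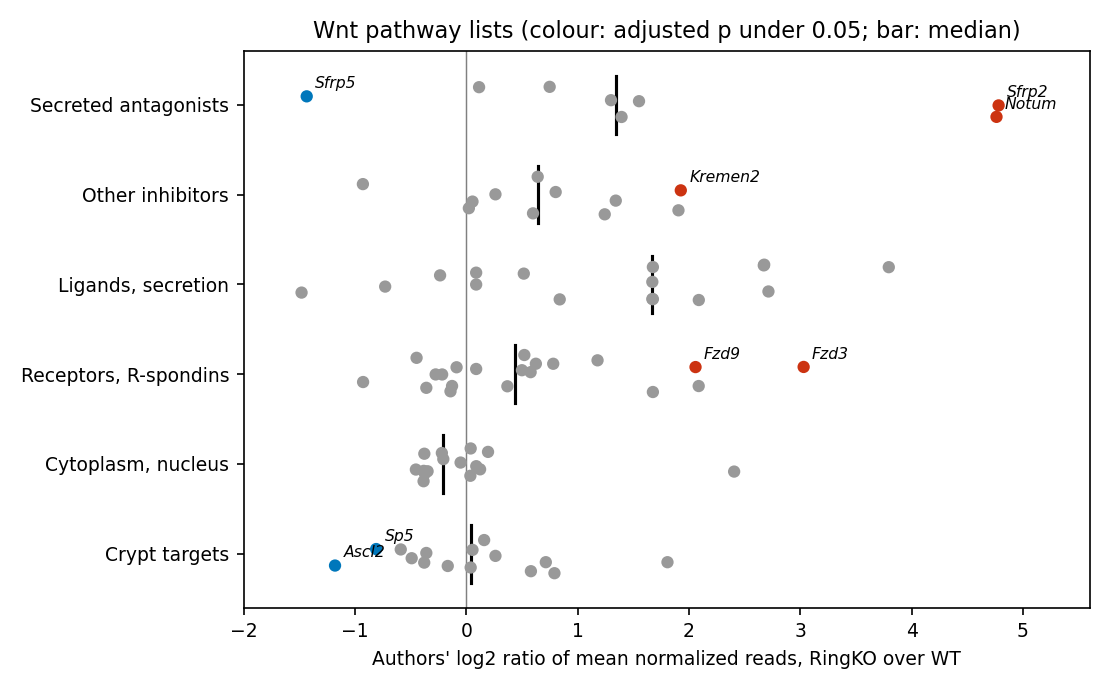
The authors' log2 ratio of RingKO over WT for each gene of the secreted antagonists and of the 5 other Wnt pathway lists (points, with random vertical scatter). Red points rose, blue points fell and grey points did not pass the authors' adjusted p of 0.05. Black bars are list medians. Notum and Sfrp2 lie at 4.76 and 4.78, to the right of Fzd3 at 3.03.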

How the data were processed

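Libraries were made with the TruSeq RNA v2 kit, per the labels' protocols. TopHat, DESeq and build mm9 stand in the submitters' processing notes. Which counter and annotation were used, and whether strand was, is not given in the sources used here. The authors deposited normalized coverage (signal) per RefSeq entry, as group means for WT and RingKO and as single libraries for the Bcat pair. The values themselves show that 1 was added to each read count before division by the size factor. The authors deposited a fold (ratio) and its log2 value in both tables, and p-values with adjusted p-values in the first. The p-values of the second table, from 1 library against 1, were not used.

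Since only 1 pair of whole counts gives a printed mean, the reads of both libraries could be recovered, uniquely for all 18376 RingKO values and 18362 WT values. The other 14 have means from 10922 up. Simulated means gave the right reads for 100% of entries. For the Bcat pair, whole reads came out for 100% of values (tolerance 0.001). No per-sample column was left unused.

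The main test was the authors' adjusted p under 0.05. Alternatives on recovered reads were edgeR 4.0.16 (quasi-likelihood, TMM, filterByExpr, Benjamini-Hochberg), DESeq2 1.42.0 and limma 3.58.1 (trend, on log2(normalized reads + 1)). The edgeR SE was taken as the log2 fold change divided by the square root of F. On simulated RingKO and WT counts with 200 entries changed 4-fold, edgeR recovered 95% with 4 false calls among 11060 entries. The simulation gave every entry the same fixed dispersion and changed only entries with a mean of at least 10. It does not show how edgeR performs on genes with few reads in both genotypes, such as Sfrp1 and Wif1. Lengths came from transcripts of GENCODE M21 matched by accession (8 of 8 members). Promoter windows are RefSeq's. Members, lists and tests were chosen with earlier results of these data known. Named genes are the 8 members, Ring1, Rnf2 and Ctnnb1, up to 4 called genes of each pathway list by smallest adjusted p, markers of cell types, and the 3 nearest entries to each called member.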

Additional observations from a re-analysis of the deposited data

Results flagged for a closer look

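The fall of Sfrp5 in RingKO was not seen in the Bcat pair. Both RingKO libraries were below both WT libraries (520 and 269 against 1129 and 1008 normalized reads). The Bcat_RingKO library was above the Bcat library, with a ratio of 1.25 (counting interval 0.998 to 1.59, which holds 1). With TMM the ratio was 1.08 (0.860 to 1.37). Scaled by total reads it was 1.29 (1.03 to 1.64), which leaves out 1. Whether the interval holds 1 thus depends on the scaling, and every ratio was under 2-fold, so no rise was called. The difference between the backgrounds was not tested, and with 1 library in each Bcat group the ratio of the Bcat pair has no replicate check.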

How the results depend on the processing

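The calls of Notum and Sfrp2 in RingKO were the same in edgeR, DESeq2 and limma, without a filter, with the size factors of the table and without each library in turn. Without 1 library the number of antagonists called lower ranged from 0 to 1, the loss being Sfrp5 without WT library A. For RingKO against WT, Dkk1 had an adjusted p only in the authors' test and in edgeR without a filter, and it passed in neither. The filter on low counts left Dkk1 out of the other edgeR fits and of limma, and DESeq2 gave it no adjusted p. Its log2 ratio changed sign from 0.11 to -0.032 in DESeq2 and -0.072 in edgeR without a filter. Its ratio of summed normalized reads, without the added read, was 0.852 (counting interval 0.195 to 2.96). The cause of the change in sign was not tested. For the pathway lists the 3 higher calls became 12 in edgeR and 8 in DESeq2, and the 2 lower calls became 1 in DESeq2. Leaving out 1 library gave 5 to 16 higher and 0 to 5 lower. Over all entries the authors' 577 higher and 323 lower calls became 1107 and 330 in edgeR, 967 and 783 in edgeR with the table's size factors, 1060 and 315 without a filter, 872 and 240 in DESeq2 and 847 and 610 in limma. TMM raised the log2 fold changes of RingKO against WT by a median of 0.18. No paired analysis was possible because the deposited columns carry no replicate number. No member had a further RefSeq row, so that alternative was not run. The depth of Bcat (3 reads are 3.25 RPM) limits every ratio of the Bcat pair.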
